A study of Mus musculus with 6 samples.

Results

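The genes described here make nitric oxide, its cofactor tetrahydrobiopterin and its substrate arginine, or compete for that arginine. The 10 genes were chosen by symbol out of 55487 genes in the count table, and the choice was made with their rmCIRBP and PBS counts known. All 10 were in the table. Their own differences are therefore given as a description, and whether a member was called is stated without a p-value. RNA came from primary lung fibroblasts of wild-type (WT) C57BL/6 mice. All cells were grown in 10% serum and then held in 0.1% serum for 24 h. One group, rmCIRBP (3 libraries), then received recombinant mouse CIRBP (cold-inducible RNA-binding protein) at 1 µg/mL for 24 h, and the other, PBS (3 libraries), received the buffer alone for 24 h. Sequencing was done in 1 batch. The labels do not say whether the libraries of a group came from separate animals or cultures, so p-values measure the spread between these libraries, which may be technical.

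Nitric oxide is a short-lived gas made from arginine by the nitric oxide synthases, which release citrulline as the other product. The inducible enzyme, encoded by Nos2, is absent from most resting cells and is switched on by bacterial products and cytokines, whereas the endothelial enzyme, encoded by Nos3, is constitutive. Every synthase needs tetrahydrobiopterin, which is made from GTP by GTP cyclohydrolase (Gch1), 6-pyruvoyltetrahydropterin synthase (Pts) and sepiapterin reductase (Spr), and the quinonoid dihydropterin left over from aromatic amino acid hydroxylation is returned to it by dihydropteridine reductase (Qdpr). Citrulline is turned back into arginine by argininosuccinate synthase (Ass1) and argininosuccinate lyase (Asl). The arginases, cytosolic Arg1 and mitochondrial Arg2, draw on the same arginine to make ornithine and urea.

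The libraries held 13677385 to 14001478 counts in rmCIRBP and 12105584 to 14262375 in PBS. Values are CPM, counts relative to the library size after scaling by trimmed mean of M values (TMM), unless counts are named. For a gene with no count, the limit of 3 counts was 0.217 to 0.221 CPM in rmCIRBP and 0.205 to 0.250 CPM in PBS, for counting error only. The 9 fibroblast markers summed to between 31500 and 37900 CPM in rmCIRBP and between 31800 and 36500 CPM in PBS, most of it collagens and fibronectin. Of these markers, Dcn, decorin, was called higher (238 ± 50.6 CPM in rmCIRBP and 103 ± 34.3 CPM in PBS) and Thy1, a surface glycoprotein, lower (69.4 ± 11.4 CPM in rmCIRBP and 160.9 ± 26.3 CPM in PBS, SD, n = 3 each). The 9 epithelial markers summed to at most 0.294 CPM in rmCIRBP and 0.479 CPM in PBS. Of 12 macrophage markers, 9 passed the filter on low counts and the sum was 84.8 to 149.9 CPM in rmCIRBP and 128 to 166 CPM in PBS, most of it Lyz2, macrophage lysozyme (44.5 to 91.7 CPM in rmCIRBP and 92.7 to 124 CPM in PBS). The 7 lymphocyte markers summed to at most 1.32 CPM in rmCIRBP and 1.16 CPM in PBS.

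Of the 10 members, 7 passed the filter and 2, Nos2 and Gch1, were called higher after rmCIRBP, both through counts in the rmCIRBP libraries. No member was called lower by edgeR with TMM scaling, while 1 of the 7, Asl, was lower at an unadjusted p under 0.05 and was called lower by DESeq2 and by edgeR with upper quartile or library size scaling. Over all 15801 genes tested, 11.5% were called, 6.74% higher and 4.77% lower, with 1065 higher against 753 lower under TMM scaling and 925 against 1022 under upper quartile scaling. In CPM, 5 of the 7 members that passed had rmCIRBP and PBS ranges with no overlap, as did 34.6% of all genes tested. Because the members were chosen with this comparison known, nothing is read from these shares.

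**Figure D1:**
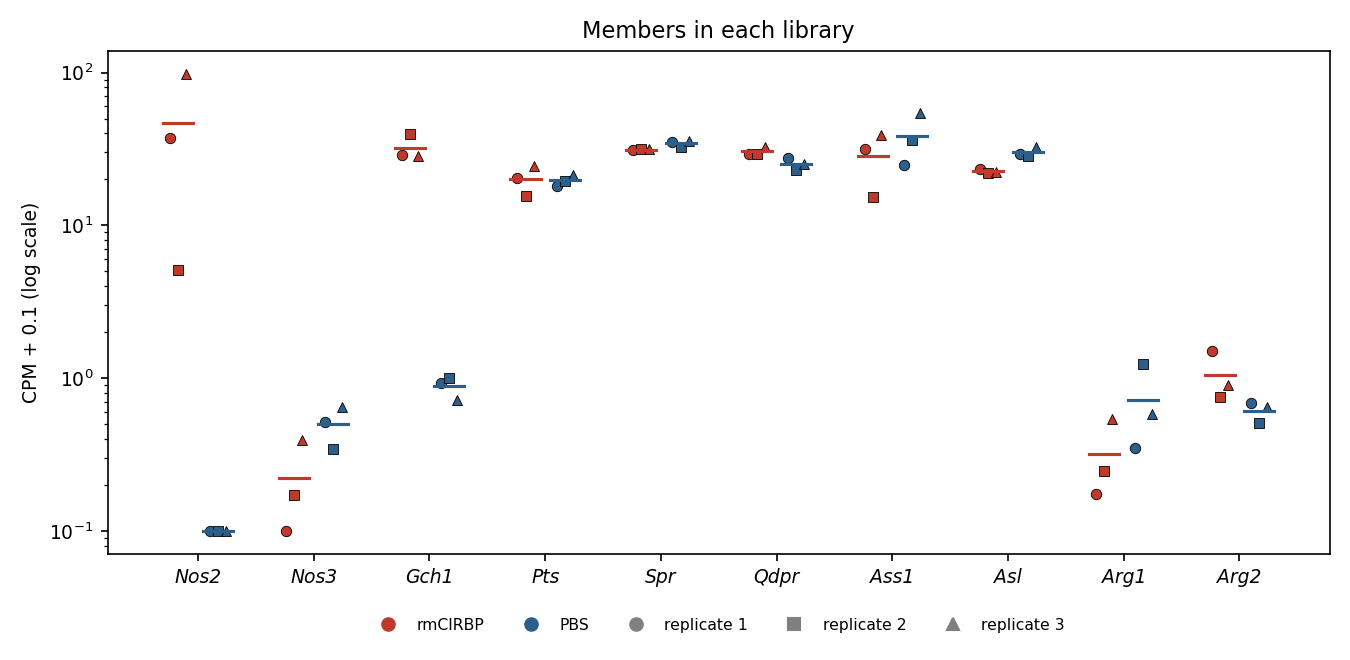
CPM plus 0.1 on a log scale for each member in each library, with rmCIRBP left of PBS, symbols for the replicate number and bars for the group mean (n = 3 each). Nos2 lies at 0 CPM in every PBS library and is spread widely in rmCIRBP, and Gch1 is high in all rmCIRBP libraries. Pts, Spr, Qdpr, Ass1 and Asl differ much less between the groups. Of these, Spr and Asl lie below PBS in every rmCIRBP library, and Qdpr lies above.

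Nos2 (chromosome 11, 78920787 to 78960254, GRCm38) had 506, 69 and 1342 counts in rmCIRBP libraries 1, 2 and 3, against 0, 0 and 0 in PBS libraries 1, 2 and 3. These are 37.2, 4.99 and 98.4 CPM in rmCIRBP. The groups did not overlap, and the rmCIRBP libraries differed among themselves by 19.7 times between the lowest and the highest. Against 3 counts over the PBS group, the pooled rmCIRBP value was at least 606-fold higher, and this bound does not cover the spread between libraries. It was at least 272-fold without rmCIRBP 3 and at least 378-fold without PBS 3. Nos2 was called by edgeR with all libraries and was no longer called without rmCIRBP 1, PBS 2 or PBS 3, or by limma voom. Among 16 tested genes with no count in any PBS library, Nos2 had the 2nd highest mean CPM in rmCIRBP. These 16 genes passed the filter only through their rmCIRBP counts.

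Nos3 (chromosome 5, 24364810 to 24384474) was at the edge of detection. It had 0, 1 and 4 counts in rmCIRBP libraries 1, 2 and 3, against 5, 3 and 8 counts in PBS libraries 1, 2 and 3. The groups overlapped, and the ratio of pooled rmCIRBP to pooled PBS counts, scaled for depth, was 0.296 (95% exact binomial interval 0.0849 to 0.846, counting error only). Nos3 overlaps Atg9b and an antisense gene on the other strand, and without a stated strand setting their reads cannot be told apart. Nos3 is typical of endothelial cells, and of 9 endothelial markers Emcn, Cldn5 and Tie1 had no count in any library, and Pecam1 was at 0.0723 to 0.294 CPM in rmCIRBP and 0.137 to 0.416 CPM in PBS. The sum of the 9 was 6.60 to 8.82 CPM in rmCIRBP and 19.6 to 28.0 CPM in PBS, chiefly through Kdr, a VEGF receptor (edgeR adjusted p = 0.000472), and Tek, an angiopoietin receptor (edgeR adjusted p = 0.0266). Fewer cells of a type and less RNA per cell cannot be told apart in RNA of whole cultures, and the part of these markers in the Nos3 counts was not tested.

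Gch1 (chromosome 14, 47153895 to 47189413), the first and rate-limiting step of tetrahydrobiopterin synthesis, stood at 28.8, 39.7 and 28.2 CPM in rmCIRBP libraries 1, 2 and 3, against 0.832, 0.895 and 0.615 CPM in PBS libraries 1, 2 and 3. All rmCIRBP libraries were far above all PBS libraries, and they differed by only 1.41 times among themselves, against 19.7 times for Nos2. The log2 fold change was 5.36 ± 0.24 (SE, n = 3 each), a 41.2-fold difference with a 95% interval of 27.9-fold to 60.9-fold. The PBS value rests on 10, 11 and 9 counts. Gch1 overlaps the processed pseudogenes Gm49134, on the other strand with 12 counts over all libraries, and Gm18811, on the same strand with 9. The part of such reads in the Gch1 counts was not tested. Gch1 was called under every alternative tried, and leaving out single libraries gave log2 fold changes from 5.19 to 5.48. Ranked by the F statistic of edgeR, Gch1 was at position 12 of the 15801 genes tested, and Nos2 was at position 740. Both genes were chosen with these counts known and passed the filter through rmCIRBP counts, so nothing is read from the ranks.

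The next enzymes of the same pathway were near their PBS levels. Pts (chromosome 9, 50521617 to 50528724), which acts after Gch1, was at 20.3, 15.5 and 24.3 CPM in rmCIRBP and at 18.0, 19.5 and 21.3 CPM in PBS, and the groups overlapped. Its log2 fold change was 0.03 (95% interval -0.38 to 0.45), with a sign that changed under upper quartile (-0.035) and library size (-0.0038) scaling. Spr (chromosome 6, 85130176 to 85137766), the last step, was at 30.9, 31.5 and 31.5 CPM in rmCIRBP and at 34.9, 32.4 and 35.5 CPM in PBS. The 3 rmCIRBP values of Spr were just below the PBS values, with a log2 fold change of -0.13 (95% interval -0.36 to 0.10), and it was not called. Qdpr (chromosome 5, 45434021 to 45450236), the recycling reductase, was at 29.0, 29.3 and 32.7 CPM in rmCIRBP and at 27.6, 22.8 and 25.0 CPM in PBS. Its rmCIRBP values were all above its PBS values, the log2 fold change was 0.27 (95% interval -0.01 to 0.55), and it was not called. Qdpr overlaps an antisense gene, Gm42413, with 1147 counts over the 6 libraries, and their reads cannot be told apart without a stated strand setting.

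The intervals of Pts, Spr and Qdpr end at 1.47-fold or less, whereas that of Gch1 starts at 27.9-fold. To set the promoter of the enzyme that was called beside those of the enzymes that follow it, the windows from 250 bases before to 50 bases after the start site are shown for Gch1, Pts and Spr. They are RefSeq sequences of GRCm38.p6, 5′ to 3′ on the strand of the gene, and all 3 genes are on the minus strand. Gch1 is at chr14:47189364-47189663, Pts at chr9:50528607-50528906 and Spr at chr6:85137715-85138014. NF-kB is a family of transcription factors that inflammatory signals activate. Capitals mark matches of the letters of an NF-kB frame, GGGNNNNNCC, or of a TATA box, TATAAA, on either strand. The letters TTCNNNGAA of a STAT frame and GAAANNGAAA of an IRF frame were also searched on both strands.
Gch1: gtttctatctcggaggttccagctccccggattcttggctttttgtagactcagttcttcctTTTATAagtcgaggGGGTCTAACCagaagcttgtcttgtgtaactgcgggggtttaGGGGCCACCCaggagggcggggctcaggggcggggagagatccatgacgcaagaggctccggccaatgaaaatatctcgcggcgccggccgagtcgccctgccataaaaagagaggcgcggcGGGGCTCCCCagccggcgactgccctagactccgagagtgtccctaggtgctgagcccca
Pts: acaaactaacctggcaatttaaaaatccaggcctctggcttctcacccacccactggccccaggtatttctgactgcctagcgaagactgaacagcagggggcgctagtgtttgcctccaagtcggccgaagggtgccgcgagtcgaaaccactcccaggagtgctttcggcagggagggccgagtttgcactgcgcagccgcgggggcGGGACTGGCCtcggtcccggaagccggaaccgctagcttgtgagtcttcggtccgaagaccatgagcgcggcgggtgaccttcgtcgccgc
Spr: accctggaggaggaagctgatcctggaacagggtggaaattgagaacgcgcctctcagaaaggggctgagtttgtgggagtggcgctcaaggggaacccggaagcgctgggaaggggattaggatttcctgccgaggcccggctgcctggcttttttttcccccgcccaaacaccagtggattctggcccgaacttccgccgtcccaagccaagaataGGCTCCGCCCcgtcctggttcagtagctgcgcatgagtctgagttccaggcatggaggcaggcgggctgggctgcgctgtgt

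Of the 10 members, 5 had a promoter in the table, Gch1, Pts, Spr, Qdpr and Ass1. The Gch1 window held 3 NF-kB frames, GGGTCTAACC from base -174 to -165, GGGGCCACCC from -132 to -123 and GGGGCTCCCC from -10 to -1, counted from the start site. It also held a TATA box match on the opposite strand, from -188 to -183. Pts had a single NF-kB frame, GGGACTGGCC, from -41 to -32, Spr a single frame on the opposite strand, from -32 to -23, and Qdpr none. Ass1, whose level did not differ beyond its spread, had 6 frame matches, some of them overlapping each other, in a window of 74.0% G and C. The NF-kB frame is common, in 50.8% of all 32851 promoter windows, the TATA box in 13.6%, the STAT frame in 8.30% and the IRF frame in 3.44%. None of the 5 windows held a STAT or IRF frame. A stricter NF-kB consensus with fixed purine and pyrimidine positions, added after these matches were seen, was in the window of Gch1 and of no other of the 5, and in 8.46% of all windows. Because it was added afterwards, nothing is read from it. Gch1, Pts, Spr and Qdpr windows had 60.3% to 62.7% G and C, against a median of 52.7% over all windows. The shares over all windows are not matched for this. A match describes letters and shows no binding, and these windows do not cover more distant sequence.

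**Figure D2:**
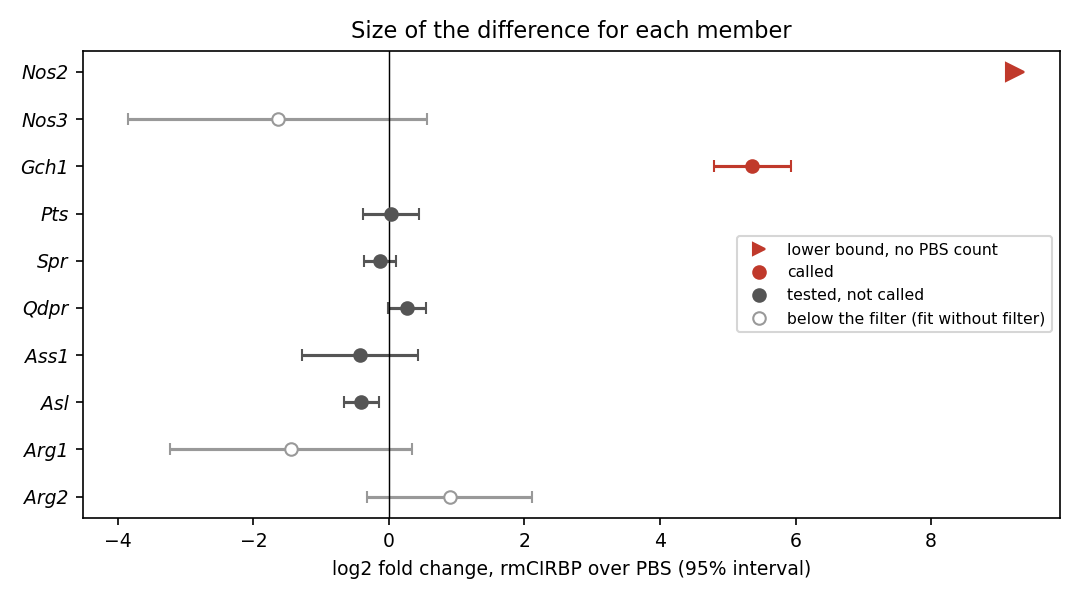
Log2 fold change of rmCIRBP over PBS for each member with its 95% interval (n = 3 each). Nos2 has no interval here and is drawn at the bound of 606-fold from pooled counts, which does not cover the spread between libraries. Gch1 lies at 5.36, the tested members that were not called lie within 0.43 of 0, and open symbols are members below the filter, taken from a fit without it.

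Of 11 other tetrahydrobiopterin genes, 6 passed the filter and none was called by edgeR, DESeq2 or limma voom, with 1 higher and 0 lower at an unadjusted p under 0.05. By edgeR, 1 gene of the list was called higher without a filter on low counts, and 1 without PBS 1. Their median log2 fold change was -0.20, against -0.01 over all genes tested, of which edgeR called 11.5%. Gchfr, the feedback inhibitor of GTP cyclohydrolase, was below the filter, at 0.0735, 0 and 0 CPM in rmCIRBP and at 0.166, 0.163 and 0.479 CPM in PBS. Akr1b3, an aldose reductase that can act late in the pathway and the most abundant of the list, was at 103 ± 5.21 CPM in rmCIRBP and 71.8 ± 18.6 CPM in PBS (SD, n = 3 each; edgeR adjusted p = 0.100). The hydroxylase genes Th, Tph1 and Tph2, whose enzymes use the cofactor, were each below the filter.

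Neither enzyme that rebuilds arginine from citrulline was called higher. Ass1 (chromosome 2, 31470207 to 31520672) was at 31.3, 15.3 and 38.6 CPM in rmCIRBP libraries 1, 2 and 3 and at 24.6, 35.9 and 53.9 CPM in PBS libraries 1, 2 and 3. The groups overlapped widely, and Ass1 varied by 2.52 times within rmCIRBP and 2.19 times within PBS. With all libraries, its log2 fold change was -0.43 (95% interval -1.28 to 0.42), and an increase above 1.34-fold lay outside that interval. The log2 fold change was -0.13 without rmCIRBP 2 and -0.09 without PBS 3, and the limit of 1.34-fold does not apply to those fits. Asl (chromosome 5, 130011258 to 130029247) was at 23.4, 22.1 and 22.4 CPM in rmCIRBP and at 29.2, 28.3 and 32.3 CPM in PBS. The rmCIRBP values of Asl were all below its PBS values, with a log2 fold change of -0.41 ± 0.11 (SE; 95% interval -0.66 to -0.15). Asl was not called by edgeR with TMM scaling, and was called lower by DESeq2 and by edgeR with upper quartile or library size scaling.

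The arginases were scarce. Arg1 (chromosome 10, 24915221 to 24927484) had 1, 2 and 6 counts in rmCIRBP libraries 1, 2 and 3, against 3, 14 and 7 counts in PBS libraries 1, 2 and 3. Its groups overlapped, and the ratio of pooled counts, rmCIRBP over PBS, was 0.356 (95% exact binomial interval 0.145 to 0.792, counting error only). Arg2 (chromosome 12, 79130777 to 79156301) had 19, 9 and 11 counts in rmCIRBP libraries 1, 2 and 3, against 7, 5 and 8 counts in PBS libraries 1, 2 and 3. In CPM its groups did not overlap, at 0.651 to 1.40 CPM in rmCIRBP and 0.407 to 0.582 CPM in PBS, and the pooled ratio was 1.85 (1.05 to 3.35). Without a filter on low counts, edgeR gave log2 fold changes of -1.45 ± 0.86 for Arg1, 0.90 ± 0.58 for Arg2 and -1.64 ± 1.06 for Nos3 (SE, n = 3 each) and called none of them. Arg2 overlaps Vti1b, on the other strand and with 5030 counts, so its few reads are uncertain.

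Per length of exon, the order of the member means was different in the groups. In rmCIRBP, Qdpr (17.0 ± 1.14 CPM per kb, SD, n = 3) was followed by Ass1 (11.8 ± 4.94), Nos2 (10.6 ± 10.8), Spr (8.82 ± 0.09), Gch1 (5.16 ± 1.04), Asl (4.68 ± 0.14) and Pts (3.28 ± 0.72), all in CPM per kb. The libraries of Nos2 were spread so widely that its place in this order is not set. Of the other neighbours, Qdpr and Ass1, Ass1 and Spr, and Gch1 and Asl lay within their spread of each other. In PBS, Ass1 (15.8 ± 6.11 CPM per kb, SD, n = 3) and Qdpr (14.1 ± 1.35) lay within their spread of each other, followed by Spr (9.67 ± 0.47), Asl (6.20 ± 0.44) and Pts (3.21 ± 0.27). Gch1 was at 0.125 ± 0.02 CPM per kb in PBS, and Nos2 at 0. Arg1, Arg2 and Nos3 averaged at most 0.666 CPM per kb in rmCIRBP, where they were the 3 lowest members, and at most 0.359 CPM per kb in PBS.

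**Figure D3:**
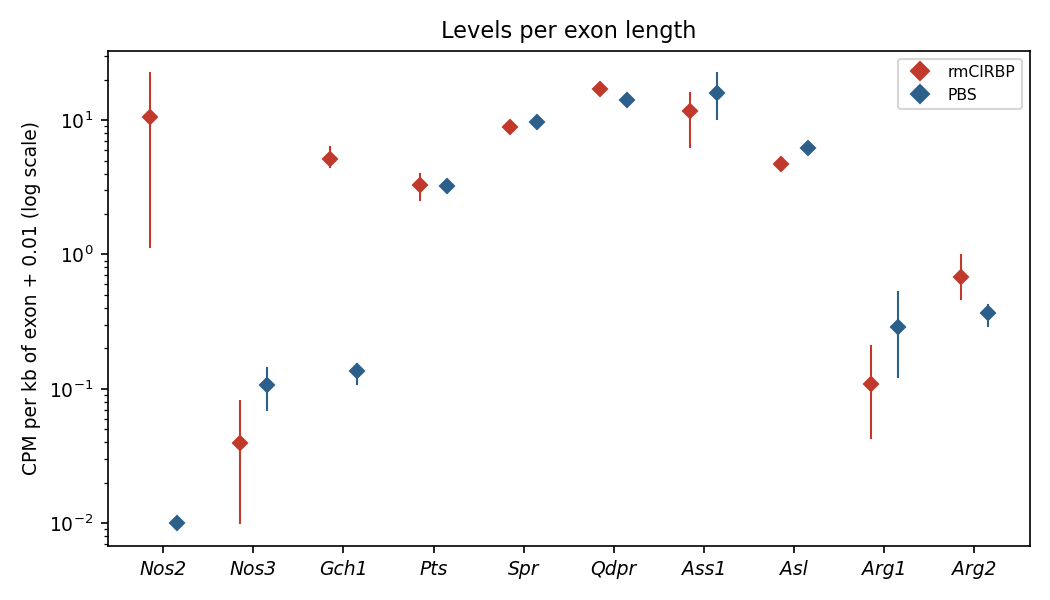
Mean CPM per kb of exon plus 0.01 on a log scale for each member, with rmCIRBP left of PBS, diamonds for means and lines from the lowest to the highest library (n = 3 each). In rmCIRBP the means of Gch1 and Nos2 reach the range of the other synthesis enzymes, while the lowest Nos2 library lies below it. In PBS both genes lie far below that range.

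Transport of arginine into the cell showed a single large change. Of 15 arginine transport and other urea cycle genes, 10 passed the filter, 1 was called higher and none lower by edgeR, with 3 higher and 0 lower at an unadjusted p under 0.05. The edgeR share was 10% of those tested, against 11.5% of all genes. DESeq2 called 2 higher and limma voom 1, and neither called any lower. The gene called by edgeR was Slc7a2, a cationic amino acid transporter known in mouse macrophages as the carrier that feeds Nos2. It was at 252, 119 and 345 CPM in rmCIRBP libraries 1, 2 and 3, against 15.9, 22.4 and 19.96 CPM in PBS libraries 1, 2 and 3. Every rmCIRBP value of Slc7a2 was above every PBS value (log2 fold change 3.62 ± 0.38, SE; edgeR adjusted p = 0.00121). Slc7a1, the widely expressed cationic amino acid transporter, was at 107 ± 60.9 CPM in rmCIRBP and 79.8 ± 23.8 CPM in PBS (SD, n = 3 each; edgeR adjusted p = 0.509). The urea cycle enzymes Otc and Nags, typical of liver, had no count in any library.

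Of 19 genes that handle ornithine, polyamines and proline, downstream of the arginases, all passed the filter, 2 were called higher and none lower by edgeR, with 5 higher and 1 lower at an unadjusted p under 0.05. The edgeR share was 10.5% of those tested, against 11.5% of all genes. DESeq2 called 5 higher and limma voom 2, and neither called any lower. Odc1, ornithine decarboxylase, the first step of polyamine synthesis, was at 235, 218 and 232 CPM in rmCIRBP and at 111, 79.3 and 70.1 CPM in PBS (log2 fold change 1.40 ± 0.17, SE; edgeR adjusted p = 0.00252). Amd1, which makes the aminopropyl donor for polyamines, was at 33.1, 48.6 and 37.4 CPM in rmCIRBP and at 26.0, 18.1 and 14.4 CPM in PBS (log2 fold change 1.03 ± 0.23, SE; edgeR adjusted p = 0.0293). The edgeR call of Amd1 ended without any library except PBS 1, with adjusted p from 0.0514 without rmCIRBP 3 to 0.112 without PBS 2. Oat, ornithine aminotransferase, which leads towards proline, was at 435 ± 63.8 CPM in rmCIRBP and 396 ± 59.0 CPM in PBS (SD, n = 3 each; edgeR adjusted p = 0.628).

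Of 15 partners and regulators of the synthases, 13 passed the filter, and edgeR called 1 higher and 1 lower, or 15.4% of those tested, against 11.5% of all genes. DESeq2 called 1 higher and 2 lower, limma voom 1 and 1, and 2 were higher and 2 lower at an unadjusted p under 0.05. Ddah2, of an enzyme family known for breaking down an endogenous synthase inhibitor, was at 71.1, 51.7 and 73.1 CPM in rmCIRBP and at 93.5, 119.8 and 119.9 CPM in PBS (log2 fold change -0.77 ± 0.16, SE; edgeR adjusted p = 0.0236). Prmt1, a methyltransferase whose modified arginines give rise to that inhibitor, was at 111, 131 and 118 CPM in rmCIRBP and at 95.7, 81.3 and 76.2 CPM in PBS (log2 fold change 0.50 ± 0.12, SE; edgeR adjusted p = 0.0361). The groups of Ddah2 and of Prmt1 did not overlap. Ddah1, of the same family as Ddah2, went the other way and was not called (log2 fold change 0.55 ± 0.21, SE; edgeR adjusted p = 0.129). It was at 74.9, 96.7 and 62.5 CPM in rmCIRBP and at 62.7, 57.4 and 40.1 CPM in PBS. The net effect of these genes on the inhibitor was not tested. With edgeR, the call of Ddah2 ended without rmCIRBP 1 (adjusted p = 0.0647), PBS 2 (0.0968) or PBS 3 (0.0900), and that of Prmt1 without any library except PBS 1 (0.0674 to 0.129) and with upper quartile scaling (0.0504). Nos1, the neuronal synthase, was below the filter.

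Of 16 targets of nitric oxide and genes for its removal, 15 passed the filter, and edgeR called 1 higher and 1 lower, or 13.3% of those tested, against 11.5% of all genes. DESeq2 called 3 higher and 2 lower, limma voom 1 and 1, and 3 were higher and 3 lower at an unadjusted p under 0.05. Gucy1a2, an alpha subunit of the guanylyl cyclase that senses nitric oxide, was at 10.5, 12.9 and 13.8 CPM in rmCIRBP and at 22.7, 19.8 and 26.4 CPM in PBS (log2 fold change -0.89 ± 0.17, SE; edgeR adjusted p = 0.0149). Of the other subunits, Gucy1a1 was at 9.56, 10.7 and 13.5 CPM in rmCIRBP and at 34.9, 25.6 and 10.4 CPM in PBS, and was not called (edgeR adjusted p = 0.119). Gucy1b1 was at 10.5, 13.8 and 14.7 CPM in rmCIRBP and at 25.7, 21.8 and 12.9 CPM in PBS, and was not called either (edgeR adjusted p = 0.161). The ranges of Gucy1a2 were apart, and those of Gucy1a1 and Gucy1b1 overlapped because of PBS 3. Txn1, thioredoxin, which can remove nitric oxide groups from proteins, was at 131, 146 and 113 CPM in rmCIRBP and at 98.0, 77.9 and 79.6 CPM in PBS (log2 fold change 0.61 ± 0.14, SE; edgeR adjusted p = 0.0289). In edgeR's test the call of Gucy1a2 ended without rmCIRBP 1 (adjusted p = 0.0644) or PBS 3 (0.0612), and that of Txn1 without rmCIRBP 1 (0.0949), rmCIRBP 2 (0.0517), PBS 2 (0.113) or PBS 3 (0.111).

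Most of the genes listed as inducers and transcription factors of mouse Nos2 were higher after rmCIRBP. Of 21 listed, 20 passed the filter, 18 were called higher and none lower by edgeR, with 18 and 0 at an unadjusted p under 0.05, 18 and 0 by DESeq2 and 16 and 0 by limma voom. By edgeR, 90% of those tested were called, against 11.5% of all genes. The median log2 fold change was 1.36, against -0.01 over all genes tested. This list was drawn up with earlier results of these data known, and its direction is no independent evidence. Irf1, an interferon regulatory factor, was at 100.4, 98.3 and 124 CPM in rmCIRBP and at 25.4, 28.9 and 33.6 CPM in PBS (log2 fold change 1.88 ± 0.15, SE; edgeR adjusted p = 0.000305). Relb, an NF-kB subunit, had the largest log2 fold change among the NF-kB subunits of the list (2.23 ± 0.13, SE; edgeR adjusted p = 7.29e-05), and Rela, the subunit with the activation domain of classical NF-kB, had 0.85 ± 0.10 (edgeR adjusted p = 0.00199).

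The cytokine genes of that list had few reads. Tnf, tumour necrosis factor, was at 6.91, 10.9 and 1.32 CPM in rmCIRBP and at 0.0832, 0.407 and 0.0684 CPM in PBS (log2 fold change 5.07, edgeR adjusted p = 0.0145). Il1b, interleukin 1 beta, was at 2.21, 7.01 and 1.83 CPM in rmCIRBP and at 0, 0 and 0.205 CPM in PBS (log2 fold change 5.43, edgeR adjusted p = 0.0121). Both were highest in rmCIRBP 2, the library with the least Nos2, and a relation to Nos2 was not tested. Both passed the filter only through their rmCIRBP counts, so their p-values are a description only. Without rmCIRBP 2 the log2 fold changes were 4.44 for Tnf and 4.57 for Il1b, and without PBS 2 that of Tnf was 6.26 and without PBS 3 that of Il1b was 8.60. With edgeR, the call of Tnf ended without PBS 3 (adjusted p = 0.0709) and that of Il1b without PBS 2 (0.0607). Ifnb1, interferon beta, had no count in rmCIRBP and stood at 0, 0.163 and 0.0684 CPM in PBS. Irf8, a macrophage-enriched regulatory factor, and Tlr4, the lipopolysaccharide receptor, were the tested genes of the list that were not called (edgeR adjusted p = 0.838 and 0.461).

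Further called genes of the list were Nfkb1 (log2 fold change 1.34), Nfkb2 (1.59) and Rel (1.22), further NF-kB subunits, Nfkbiz (1.27), a nuclear IkB protein, the kinases Jak1 (0.41) and Jak2 (1.87), the interferon gamma receptor chains Ifngr1 (0.99) and Ifngr2 (0.88), the C/EBP factors Cebpb (1.48) and Cebpd (2.06), Hif1a (1.55), a hypoxia-inducible factor subunit, and the adaptor Myd88 (0.62). With edgeR, the call of Jak1 ended without any of the 6 libraries (adjusted p = 0.0560 to 0.151), that of Nfkbiz without any except rmCIRBP 2 (0.0739 to 0.134), that of Myd88 without rmCIRBP 1, rmCIRBP 3, PBS 2 or PBS 3 (0.0693 to 0.0871), and that of Cebpd without PBS 2 (0.0577). By limma voom, Nfkbiz (adjusted p = 0.0520) and Tnf (0.0838) were not called.

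Of 13 regulators of mouse Arg1, 12 passed the filter, with 6 higher and 1 lower at an unadjusted p under 0.05. By edgeR, 41.7% of those tested were called, against 11.5% of all genes, on a list drawn up with earlier results known. EdgeR called 5 higher and none lower, and DESeq2 and limma voom also called 5 higher and none lower. These were Cebpb, the interleukin 4 and 13 receptor chains Il4ra (log2 fold change 1.02 ± 0.16) and Il13ra1 (2.87 ± 0.33), Epas1, a hypoxia-inducible factor (1.91 ± 0.17), and Adora2b, an adenosine receptor (0.90 ± 0.17, SE). With edgeR the call of Adora2b (adjusted p = 0.0142) ended without PBS 2 (0.0628) or PBS 3 (0.0544). Il13 had no count in any library, Il4 was at 1.51 ± 0.51 CPM in rmCIRBP and 1.94 ± 1.23 CPM in PBS (SD, n = 3 each), and Stat6, their transcription factor, was not called (log2 fold change 0.14 ± 0.11, SE; edgeR adjusted p = 0.434).

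**Figure D4:**
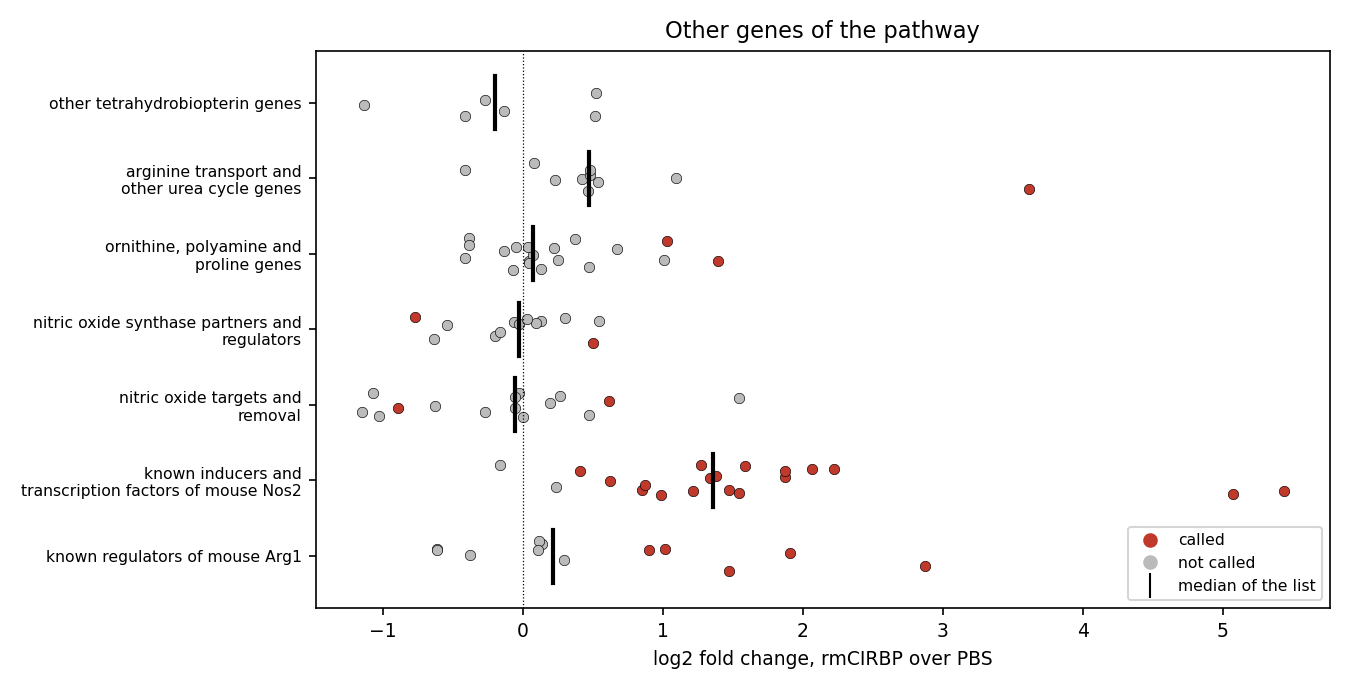
Log2 fold change of rmCIRBP over PBS for each tested gene of the 7 lists around the members, with called genes in red, others in grey and a bar at the list's median (n = 3 libraries each). The list of Nos2 inducers lies mostly right of 0, with a median of 1.36, Slc7a2 stands apart in the transport list, and the other medians lie between -0.20 and 0.47.

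The rmCIRBP libraries did not share a single order for these genes. Nos2, Slc7a2 and Ass1 were each highest in rmCIRBP 3, then rmCIRBP 1, and lowest in rmCIRBP 2, whereas Gch1 was highest in rmCIRBP 2. The order of Nos2 was that of 35.9% of the 1063 genes called higher with a mean of at least 1 CPM in rmCIRBP, and of 25.7% of all 14865 tested genes at that level. The ratio of highest to lowest was larger for Nos2 than for 99.9% of those 14865 genes, whose median ratio was 1.298, and larger for Ass1 than for 93.1% of them, while Gch1 exceeded 62.1%. The 7 smooth muscle markers summed to 4614, 10020 and 1960 CPM in rmCIRBP libraries 1, 2 and 3 and to 5294, 2571 and 2691 CPM in PBS libraries 1, 2 and 3, so rmCIRBP 2 held the most of these markers and the least Nos2. The part of these markers in the spread of Nos2 was not tested.

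**Figure D5:**
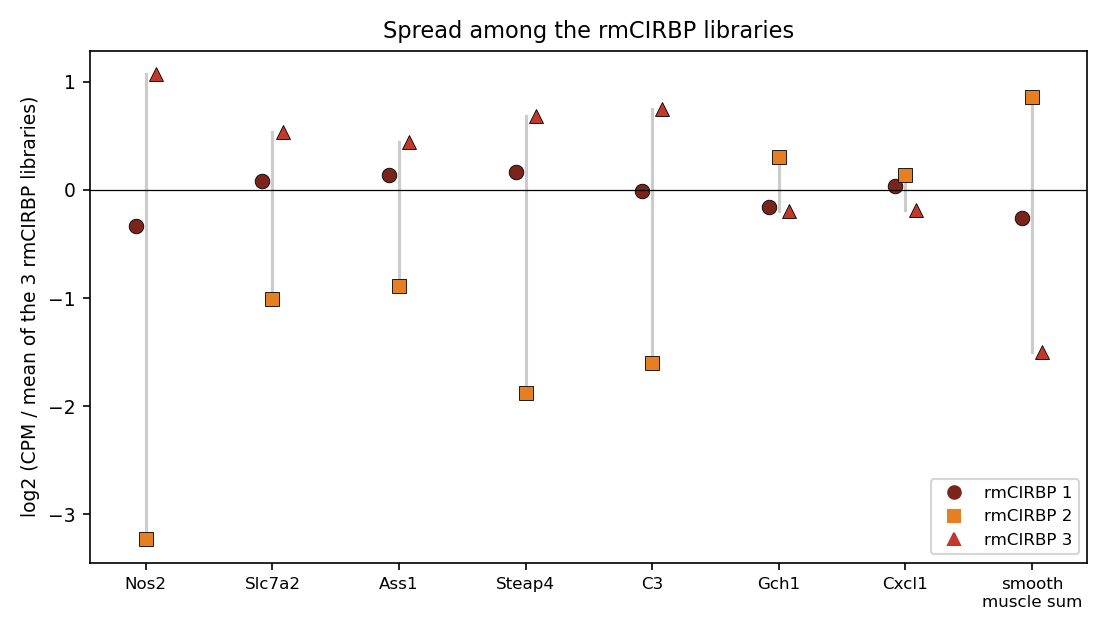
Log2 ratio of CPM to the mean of the 3 rmCIRBP libraries for Nos2, Slc7a2, Ass1, Gch1, genes of like profile and the sum of the smooth muscle markers, with a symbol for each rmCIRBP library. rmCIRBP 2 is lowest for Nos2, Slc7a2, Ass1, Steap4 and C3 and highest for Gch1, Cxcl1 and the smooth muscle sum.

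By the root mean square difference of log2 CPM profiles over the 6 libraries, each centred on its mean, the 3 of 12513 protein-coding genes most like Nos2 were Steap4, a metalloreductase (0.608), Serpina3f, a protease inhibitor (0.878), and C3, complement component 3 (0.931, all on the log2 scale). Steap4 was at 972, 235 and 1389 CPM in rmCIRBP libraries 1, 2 and 3, the same order as Nos2, and at 5.49, 6.51 and 3.15 CPM in PBS. The genes most like Gch1 were Cxcl1, a neutrophil chemokine (0.197), Marco, a scavenger receptor (0.385), and Kcnq5, a potassium channel (0.414). Cxcl1 was at 132, 141 and 113 CPM in rmCIRBP and at 4.16, 3.58 and 2.19 CPM in PBS. Those most like Ass1 were Cd1d1, an antigen-presenting molecule (0.117), H2bc8, a histone H2B gene (0.129), and Kank3, a KANK family protein (0.160). Likeness over 6 libraries mixes the treatment difference with the spread between libraries, and histone H2B genes share sequence.

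Markers of macrophages, cells known for Nos2 and Arg1, moved in both directions, with 3 of the 9 that passed the filter called higher and 2 lower. Over all genes tested, 6.74% were called higher and 4.77% lower. Adgre1, a macrophage surface receptor, was at 10.4, 11.3 and 5.21 CPM in rmCIRBP and at 1.58, 1.87 and 1.44 CPM in PBS (edgeR adjusted p = 0.00440), and Marco (edgeR adjusted p = 0.000543) and Siglecf (0.0467) were the others called higher. Marco had 2, 2 and 4 counts and Siglecf 0, 4 and 1 counts in PBS libraries 1, 2 and 3, and both passed the filter only through rmCIRBP counts. Mertk and Mrc1 were called lower (edgeR adjusted p = 0.0191 and 0.0302). Mrc1, with 15, 20 and 8 counts in rmCIRBP libraries 1, 2 and 3, passed the filter only through its PBS counts. The macrophage sum, most of it Lyz2 (44.5 CPM in rmCIRBP 3), was lowest in rmCIRBP 3, at 84.8 CPM, the library with the most Nos2. The markers did not share a single order. Among the rmCIRBP libraries, Adgre1, Cd68, Csf1r, Lyz2, Mrc1, Marco and Ptprc were lowest in rmCIRBP 3. Siglecf (1.69 CPM) and Mertk (8.87 CPM) were highest in it. Of 10 neutrophil markers, 5, S100a9, Ly6g, Elane, Cxcr2 and Ngp, had no count in any library, and the sum was 2.75 to 4.41 CPM in rmCIRBP and 0 to 0.250 CPM in PBS. The neutrophil marker that passed the filter, Camp, a granule peptide, was called higher, with 37, 18 and 28 counts in rmCIRBP and 0, 0 and 0 in PBS (edgeR adjusted p = 0.00623). Camp too passed the filter only through its rmCIRBP counts. The p-values of Marco, Siglecf, Mrc1 and Camp are therefore a description only. Below the filter, S100a8 had 12, 12 and 10 counts in rmCIRBP and 3, 0 and 0 in PBS, and Csf3r had 9, 5 and 6 counts in rmCIRBP and none in PBS. The part of these cells in the members' counts was not tested.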

How the data were processed

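Per the submitters' processing notes, the authors used featureCounts on GRCm38 (mm10), R 4.1.2 and DESeq2. They deposited raw counts, 1 column per library of polyA-selected RNA, with 0 columns left unmapped. Not given in the sources used here are the aligner, annotation release, strand setting and handling of multimapping reads. Depth was 12105584 to 14262375 counts per library.

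Counts were filtered with filterByExpr (minimum count 10), scaled by TMM and tested with edgeR 4.0.16 in R 4.3.3 by its quasi-likelihood F test (two-sided, treatment only, Benjamini-Hochberg over 15801 genes, threshold 0.05). DESeq2 1.42.0, limma voom 3.58.1, other scalings and filters, a replicate block and leaving out each library were alternatives. SEs and 95% intervals were derived from the F statistics. Exon lengths are unions over GENCODE M21 exons of GRCm38. Of the listed symbols, Pycr3 was matched by its older name.

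Members and lists were chosen with earlier results of these data known. The text names all members, the called genes of each list or its most abundant, the 3 most similar profiles (prior count 2) and defining cell type markers. Other genes were named after their values were seen. Some genes of the lists are counted but not reported here by name.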

Additional observations from a re-analysis of the deposited data

How the results depend on the processing

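The number of all genes called was 1818, and 723 to 2144 with single libraries left out (742 without rmCIRBP 1, 723 without PBS 2 and 863 without PBS 3). It was 2607 without a filter, 2618 by DESeq2 and 1258 with the replicate number as a block. Of the members, 2 were called, and 1 by limma voom. With libraries left out the number was 1 to 2, being 1 without rmCIRBP 1, PBS 2 or PBS 3. The member lost was Nos2. Asl was called lower with upper quartile scaling, library size scaling and DESeq2. The log2 fold change of Pts reversed sign with upper quartile scaling (-0.035), library size scaling (-0.0038), without rmCIRBP 3 (-0.13) and without PBS 1 (-0.019), and ran from -0.13 to 0.19 with libraries left out. Of the other pathway genes, 29 were called, and 19 to 31 with libraries left out. The cause of these changes was not tested.

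Same-numbered libraries had deviations correlated at -0.107, -0.169 and 0.246. Of the rmCIRBP libraries, rmCIRBP 3 correlated best with its own number, and not every library did. Deviations from a mean of 3 libraries cancel out within each group, so these correlations cannot settle whether replicate numbers pair the libraries. The replicate block left 2 members called and 28 of the other pathway genes, and ended the edgeR calls of Jak1 (adjusted p = 0.107), Prmt1 (0.0813) and Txn1 (0.0504).

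Depth limits Nos3, Arg1 and Arg2, which had 5 to 39 pooled counts in rmCIRBP and 16 to 24 in PBS, so no call was possible for them after the filter.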
